A study of Mus musculus with 6 samples.

Results

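The mRNA levels of 10 genes that write, protect or remove DNA methylation were examined in fully grown mouse oocytes, WT or Nat10 conditional knockout. The genes are Dnmt1, Uhrf1, Dnmt3a, Dnmt3b, Dnmt3l, Dppa3, Tet1, Tet2, Tet3 and Tdg, found by symbol among the 55291 genes of the deposited table. Each of the 6 libraries held polyadenylated RNA of 10 oocytes, made by Smart-seq2, a full-length cDNA method primed with oligo-dT. There were 3 libraries labelled WT and 3 labelled Gdf9-cre Nat10 conditional knockout, here called Nat10 cKO. NAT10 is the enzyme that places N4-acetylcytidine on RNA, and the series' title puts the question in translational control during meiotic maturation. All females, of both genotypes, had received PMSG, a gonadotropin that stimulates follicle growth; the labels give neither age nor strain. Gdf9-cre acts in the oocyte, so other cells of the ovary keep Nat10. The labels do not say that the libraries of a group came from separate animals, so p-values measure the spread between these samples, which may be technical.

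Cytosine methylation at CpG is laid down in the growing oocyte by DNMT3A with its inactive partner DNMT3L, and it is copied after replication by DNMT1, which UHRF1 brings to hemimethylated DNA. TET dioxygenases oxidise 5-methylcytosine, TDG excises the most oxidised forms, and base excision repair fills the gap. In the fully grown oocyte, DPPA3 (also called Stella) keeps UHRF1 out of the nucleus and, after fertilisation, shields the maternal genome from TET3, the TET enzyme known from the oocyte and zygote.

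The starts of the genes with the largest changes, Tet1, Tet3 and Tdg, are shown from RefSeq on GRCm38.p6 as windows around the transcript start that RefSeq lists. For Tet1 and Tet3 that start lies inside the gene's GENCODE span given later, whose outermost start is farther upstream; for Tdg the window spans the GENCODE start. Windows were listed for 9 of the 10 genes, all but Dppa3. The strand is that of the gene, and CpG dinucleotides are in capitals. The windows are chr10:62887275-62887574 on the minus strand for Tet1, chr6:83441629-83441928 on the minus strand for Tet3 and chr10:82629588-82629887 on the plus strand for Tdg.
Tet1: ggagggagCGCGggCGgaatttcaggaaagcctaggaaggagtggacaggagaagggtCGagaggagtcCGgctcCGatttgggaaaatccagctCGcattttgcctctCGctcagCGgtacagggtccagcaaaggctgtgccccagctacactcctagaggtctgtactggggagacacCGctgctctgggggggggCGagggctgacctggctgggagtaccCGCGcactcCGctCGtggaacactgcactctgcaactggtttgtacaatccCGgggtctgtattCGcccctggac
Tet3: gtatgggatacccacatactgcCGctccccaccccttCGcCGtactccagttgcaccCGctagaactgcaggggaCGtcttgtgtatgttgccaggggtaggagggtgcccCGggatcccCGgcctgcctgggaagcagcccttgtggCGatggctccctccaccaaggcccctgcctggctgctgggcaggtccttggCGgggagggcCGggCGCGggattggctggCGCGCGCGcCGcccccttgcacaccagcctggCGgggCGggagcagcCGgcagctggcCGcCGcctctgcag
Tdg: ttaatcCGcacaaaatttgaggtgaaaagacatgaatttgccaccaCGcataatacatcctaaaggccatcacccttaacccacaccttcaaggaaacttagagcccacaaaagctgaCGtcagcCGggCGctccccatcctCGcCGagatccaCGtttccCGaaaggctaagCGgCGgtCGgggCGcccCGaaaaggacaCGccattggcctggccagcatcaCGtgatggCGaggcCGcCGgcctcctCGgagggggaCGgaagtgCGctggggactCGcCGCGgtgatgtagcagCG
All 3 windows are richer in CpG than the median of the 32851 RefSeq windows of this length, which is 7. Tet1 has 17 CpG, Tet3 22 and Tdg 26. Their G and C content is 61.7%, 71.3% and 59.3%, against a median of 52.7%. The GC box core GGGCGG, searched on both strands, occurs 1 time in the Tet1 window, 2 times in that of Tet3 and 0 times in that of Tdg, and 35.7% of all windows hold it. CCAAT, also on both strands, occurs 0, 1 and 1 times in that order, against 37.4% of all windows, and TATAAA in none of the 3, against 13.6%. These are matches of letters, and which start the oocytes used was not measured.

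The libraries gave 33.5 to 65.5 M reads in WT and 47.4 to 74.1 M in Nat10 cKO. Levels are given as CPM (reads of a gene divided by all reads of the library, after TMM scaling), which sets libraries against the bulk of their mRNA. Nat10, the targeted gene, measured 42.1, 50.1 and 39.3 CPM in WT and 5.72, 5.97 and 6.32 CPM in Nat10 cKO (log2 change -2.67, SE 0.129, limma adjusted p = 4.29e-08). Granulosa and cumulus markers summed to 420 to 473 CPM in WT and 396 to 440 CPM in Nat10 cKO over 15 genes, of which Serpine2 held the most and Foxl2, Amh, Inhbb and Hsd17b1 were under 1 CPM in every library. Of 13 tested, 3 fell and 1 rose. Cyp19a1 fell from 52.1 to 41.1 CPM (limma adjusted p = 0.0488), and Serpine2 did not pass (limma adjusted p = 0.376). Inhba and Inhbb fell and Inha rose, all named after their values were seen (limma adjusted p = 0.00387, 0.0237 and 0.0197). The 14 oocyte markers, led by Gdf9 and Padi6, summed to 25953 to 27396 CPM in WT and 33867 to 40698 CPM in Nat10 cKO, and all 14 were above 1 CPM in every library. Theca, stroma and endothelium markers summed to 93.8 to 99.4 CPM in WT and 91.9 to 106 CPM in Nat10 cKO over 11 genes, with Col3a1 at 0 reads and 7 genes under 1 CPM in every library. Within this sum Pecam1 rose from 40.7 to 58.3 CPM and Myh11 fell from 39.4 to 26.0 CPM (limma adjusted p = 0.00161 and 0.0169). Blood and immune markers summed to 51.1 to 55.8 and 41.2 to 44.5 CPM over 9 genes. Of these, Ptprc, Csf1r, C1qa, Lyz2, Hba-a1 and Hbb-bs (6 genes) were under 1 CPM. C1qb held most of that sum and fell from 43.9 to 32.1 CPM (limma adjusted p = 0.00489). H2-Aa, at 6.71 and 7.32 CPM, did not pass (limma adjusted p = 0.704). In bulk RNA, fewer cells of a type and less RNA per cell cannot be told apart.

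The 10 genes covered almost the whole range of oocyte mRNA levels. Set per kilobase of annotated exon, the WT medians were 2138 CPM per kb for Dppa3, 167 for Dnmt1, 136 for Uhrf1, 65.7 for Dnmt3l, 54.0 for Tet3, 12.4 for Dnmt3a, 2.59 for Dnmt3b, 0.645 for Tet1, 0.156 for Tet2 and 0.00575 for Tdg. By the mean of all 6 libraries, Dppa3 stood at percentile 99.9 of 17899 tested genes with a known length, Dnmt3b at percentile 50.9 and Tdg at percentile 4.23. The rank of Tdg rests mostly on Nat10 cKO, which held 120 of its 131 reads. In WT, the ranges of neighbours in the order of medians did not overlap. In Nat10 cKO the order of medians was the same, but the ranges of Dnmt1 and Uhrf1 overlapped, as did those of Tet2 and Tdg. Per kilobase, the order was thus led by the protecting factor and the maintenance pair, with Dnmt3l above its catalytic partner Dnmt3a. It depends on the length used, which counts every annotated exon (16642 bases for Dnmt3a and 2988 for Dnmt3l). Without length, the WT means were 204 CPM for Dnmt3a and 197 for Dnmt3l, and 906 CPM for Tet3 against 597 for Uhrf1. Which transcripts the oocytes used was not measured.

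**Figure D1:**
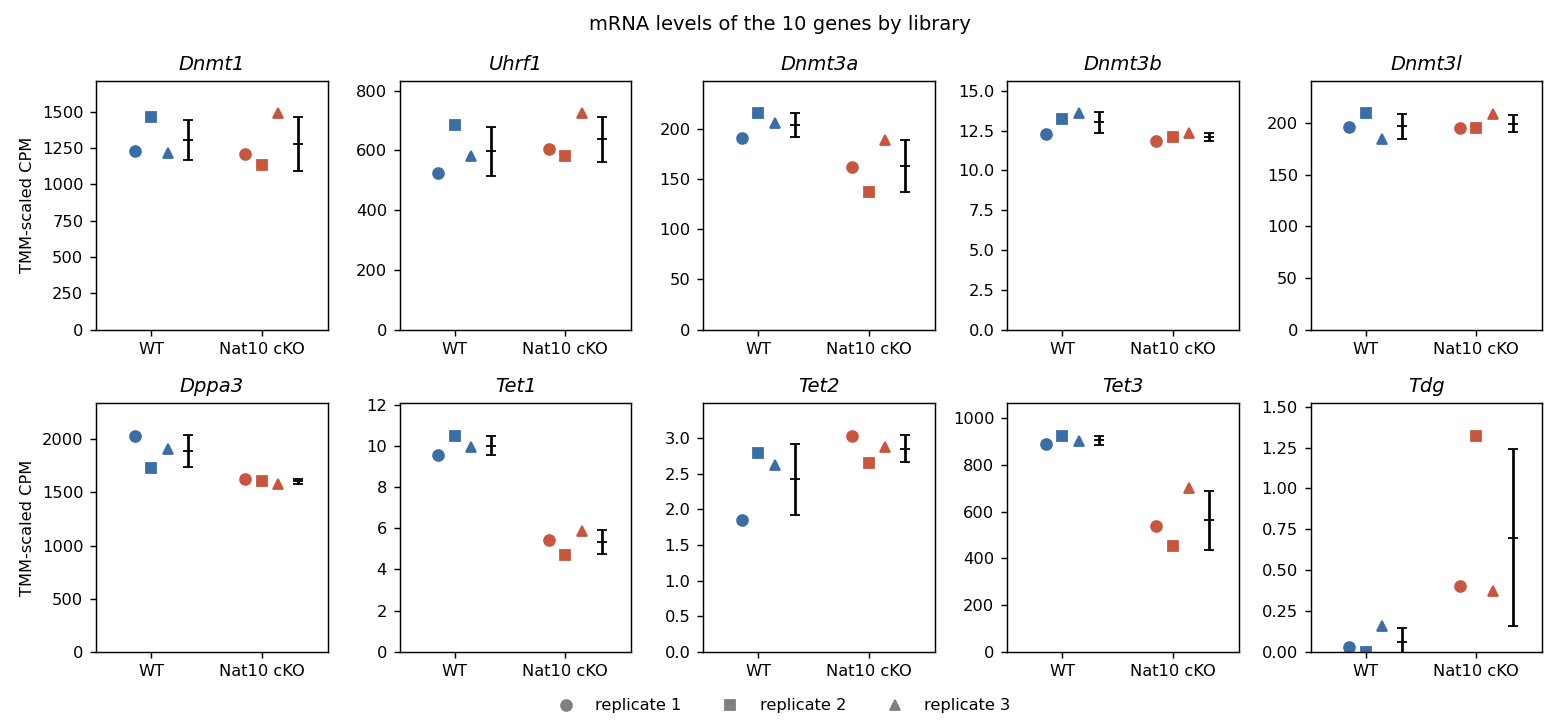
Level of each of the 10 genes in each library (TMM-scaled CPM, linear axes starting at 0, 1 marker shape per replicate number), with the mean and SD of 3 libraries beside each group; the lower SD bar of Tdg in WT is clipped at 0. Tet1 and Tet3 show Nat10 cKO libraries well below all WT libraries, Tdg shows them above, and Dnmt1, Uhrf1, Dnmt3b, Dnmt3l and Tet2 overlap.

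Against WT, under TMM scaling, 4 of the 10 genes fell in Nat10 cKO oocytes (Tet1, Tet3, Dnmt3a and Dppa3) and 1 rose (Tdg), by limma with Benjamini-Hochberg adjustment over 18353 genes and a threshold of 0.05. Over all tested genes, 17.4% rose and 17.6% fell. The groups did not overlap for 5 of the 10 genes, the same 5, against 48.3% of all tested genes, so the share of non-overlapping genes was near the background. The median change of the 10 genes was -0.07 on the log2 scale, against 0.00 for all tested genes. All 10 passed the filter on low counts; Tdg passed only through the Nat10 cKO libraries, so among genes at that level it had to differ to be tested. All changes are on the scale of log2(CPM + 1), which understates those of low genes such as Tet2 and Tdg.

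The maintenance pair did not pass the test. Dnmt1 (chromosome 9, 20907209 to 20959888, minus strand, GRCm38), the methyltransferase that copies CpG methylation, measured 1232, 1465 and 1216 CPM in WT and 1207, 1134 and 1487 CPM in Nat10 cKO. Both groups spanned nearly the same range, with Nat10 cKO replicate 3 the highest library of all. Its log2 change was -0.04, with a 95% interval from -0.27 to 0.20 (limma adjusted p = 0.822, n = 3 per group). Uhrf1 (chromosome 17, 56303321 to 56323486, plus strand), which reads hemimethylated CpG, measured 524, 685 and 581 CPM in WT and 603, 582 and 723 CPM in Nat10 cKO. The groups overlapped, and the log2 change was 0.09 with an interval from -0.14 to 0.33 (limma adjusted p = 0.536). A transcribed copy, Gm5648, shares 1590 bases with Uhrf1 at 98.3% identity and held 18 to 80 reads per library, so some of its reads may belong to Uhrf1 or the reverse. The oocyte and somatic forms of Dnmt1 cannot be told apart in gene-level values.

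Among the de novo genes, Dnmt3a fell and its partners did not pass the test. Dnmt3a (chromosome 12, 3806007 to 3914443, plus strand), which encodes the methyltransferase that sets the oocyte methylome, measured 191, 215 and 206 CPM in WT and 162, 137 and 189 CPM in Nat10 cKO. Nat10 cKO replicate 3 lay just below the lowest WT library, so the groups stood apart by a narrow gap. The mean went from 204 ± 12.3 to 163 ± 25.7 CPM (SD, n = 3), 20.2% less, a log2 change of -0.33 (SE 0.110, limma adjusted p = 0.0313). This call held in 2 of the 6 fits that left out 1 library, which lacked WT replicate 1 or Nat10 cKO replicate 3, and it was lost when libraries were scaled by total reads only and when no filter was applied.

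Dnmt3l (chromosome 10, 78041947 to 78063622, plus strand), the catalytically inactive stimulator of DNMT3A, measured 196, 209 and 185 CPM in WT and 195, 195 and 208 CPM in Nat10 cKO. All 6 libraries lay close together, and the log2 change was 0.02 with an interval from -0.16 to 0.20 (limma adjusted p = 0.874). Dnmt3b (chromosome 2, 153649450 to 153687730, plus strand), the second de novo methyltransferase, was far lower. It measured 12.3, 13.2 and 13.6 CPM in WT and 11.8, 12.1 and 12.3 CPM in Nat10 cKO, a log2 change of -0.10 with an interval from -0.36 to 0.17 (limma adjusted p = 0.578). Its copy Dnmt3c, 93.9% identical over 1434 bases, held 38 to 146 reads per library. Of the summed DNMT3 levels per kilobase, Dnmt3l made up 80.5% to 82.6% in the WT libraries and 83.5% to 86.0% in the Nat10 cKO libraries, while Dnmt3a made up 14.4% to 16.1% and 10.9% to 13.6%. These shares rest on division by all annotated exons, without which the WT means of Dnmt3a and Dnmt3l were close (204 and 197 CPM). Exons of Dnmt3a share 133 bases with the antisense gene Dnmt3aos, and those of Dnmt3l share 67 bases with Aire on the other strand, or 0.799% and 2.24% of their exon lengths.

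Dppa3 (chromosome 6, 122626410 to 122630272, plus strand), the protector of maternal methylation, had the highest level of the 10 genes and a small fall. It measured 2036, 1735 and 1907 CPM in WT and 1627, 1611 and 1579 CPM in Nat10 cKO. The 3 Nat10 cKO libraries lay within a narrow band below every WT library. The mean went from 1893 ± 151 to 1606 ± 24.6 CPM (SD, n = 3), 15.2% less, a log2 change of -0.23 (SE 0.081, limma adjusted p = 0.0385). The call held in 1 of the 6 fits that left out 1 library, that without WT replicate 2. It was lost with no filter and with replicate numbers as a block (limma adjusted p = 0.0596). A pseudogene, Dppa3-ps, is 98.2% identical over 451 bases and held 137 to 382 reads per library.

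Tet1 and Tet3 showed the largest falls of the 10 genes, and Tet2 did not pass the test. Tet3 (chromosome 6, 83362373 to 83459084, minus strand), the TET dioxygenase of oocyte and zygote, measured 889, 926 and 902 CPM in WT and 539, 452 and 701 CPM in Nat10 cKO. WT libraries lay within a narrow band, while the Nat10 cKO libraries spread widely below it, with replicate 3 nearest to WT. The mean went from 906 ± 18.6 to 564 ± 126 CPM (SD, n = 3), 1.61-fold lower, a log2 change of -0.71 (SE 0.125, limma adjusted p = 0.000984). Tet1 (chromosome 10, 62804570 to 62908996, minus strand), better known from stem cells and primordial germ cells, measured 9.58, 10.5 and 9.98 CPM in WT and 5.43, 4.69 and 5.86 CPM in Nat10 cKO. Every Nat10 cKO library was well below every WT library. The mean went from 10.0 ± 0.466 to 5.32 ± 0.595 CPM (SD, n = 3), 1.88-fold lower, a log2 change of -0.80 (SE 0.142, limma adjusted p = 0.00099). Both falls were called in all 6 fits that left out 1 library.

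Tet2 (chromosome 3, 133463679 to 133545139, minus strand), the TET gene best known from blood, was the lowest of the TET genes. It measured 1.85, 2.78 and 2.63 CPM in WT and 3.03, 2.65 and 2.88 CPM in Nat10 cKO, from 60 to 227 reads per library. The groups overlapped, and the log2 change was 0.18 with an interval from -0.17 to 0.53 (limma adjusted p = 0.414). Tet3 supplied 98.5% to 98.6% of the summed TET levels per kilobase in WT and 98.3% to 98.7% in Nat10 cKO, so the sum followed Tet3. That sum was 54.0 to 56.3 CPM per kb in WT and 27.5 to 42.5 CPM per kb in Nat10 cKO. The oocyte form of Tet3, which starts at its own promoter, cannot be told apart from other forms in these values.

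Tdg (chromosome 10, 82629828 to 82650799, plus strand), the glycosylase that removes oxidised methylcytosine, was near the limit of detection in WT and rose in Nat10 cKO. It had 1, 0 and 10 reads in the WT libraries and 30, 63 and 27 in the Nat10 cKO libraries. These are 0.0309, 0 and 0.155 CPM in WT and 0.401, 1.32 and 0.373 CPM in Nat10 cKO. All Nat10 cKO libraries were above all WT libraries, and replicate 2 held 63 of the 120 Nat10 cKO reads. The 0 in WT replicate 2 allows a level of up to 0.0861 CPM, counting 3 reads as the limit. The log2 change was 0.64 (SE 0.173, limma adjusted p = 0.012), and edgeR's quasi-likelihood test on the reads gave 3.12 (adjusted p = 0.0102). The rise was also called in the 6 fits that left out 1 library, but Tdg entered the test through its Nat10 cKO libraries alone, so these calls lend it no support. Tdg is also uncertain because the pseudogene Tdg-ps matches 84.8% of its transcript at 98.7% identity and Gm5597 matches 1193 bases at 99.3%. Both copies were listed at 0 reads in every library, and how reads with several matches were counted is not known here. Tdg also shares 367 exon bases with Glt8d2 on the other strand, which held 0 to 4 reads per library.

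The sizes and some calls depended on how libraries were scaled. On the deposited scale, which multiplies each library's reads by the authors' factor and does not divide by depth, 6.58% of all genes rose and 1.39% fell, and the median of all genes was 0.24 higher in Nat10 cKO on the log2 scale. Of the 10 genes, only Tdg passed there, with a rise. It entered the test through its Nat10 cKO libraries alone, so this call lends the rise no support. Tet1 was -0.48 and Tet3 -0.35 on that scale (limma adjusted p = 0.492 and 0.650), which is -0.73 and -0.59 relative to the median of all genes. Dnmt3a was 0.03 and Dppa3 0.13 (limma adjusted p = 0.979 and 0.882), above 0 but -0.22 and -0.11 relative to the median of all genes. With the authors' factors applied to each library's CPM without TMM, 5.58% of all genes rose, 16.5% fell and the median was -0.15. The same 5 genes as under TMM scaling passed in the same directions, Tdg with the limit just given. There Tet1 was -0.996, Tet3 -0.92, Dnmt3a -0.55 and Dppa3 -0.45.

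**Figure D2:**
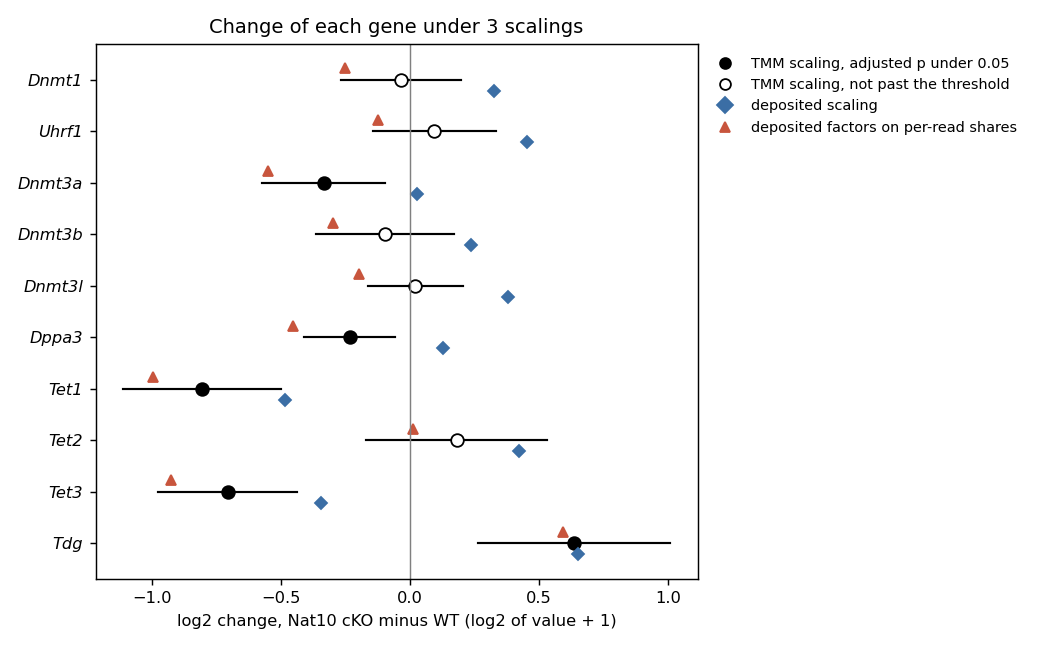
Log2 change of each of the 10 genes, Nat10 cKO minus WT, under TMM scaling (circles with 95% intervals, filled where the limma adjusted p was under 0.05), on the deposited scale (diamonds) and with CPM multiplied by the authors' factors (triangles). Tet1 and Tet3 are below 0 on all 3 scales, while Dnmt3a and Dppa3 are below 0 on 2 of them. Tdg, which entered the test through its Nat10 cKO libraries alone, is above 0 on all 3.

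Ratios of genes within a library do not depend on that scaling. Of 8 pairs of partners or opponents, 5 did not overlap between the groups, among them Tet3 to Tdg, which rests on the few Tdg reads. Over all pairs of tested genes 46.1% did not overlap, so the count of 5 is read as no result about these genes. Each of the 5 reached p = 0.1 in a two-sided exact permutation test, the smallest value that 3 against 3 libraries allow, or 0.16 after adjustment over the 8 pairs. Tet3 reads per Dnmt1 read were 0.722, 0.632 and 0.742 in WT and 0.446, 0.399 and 0.471 in Nat10 cKO, a log2 difference of -0.67. Tet3 reads per Dnmt3a read were 4.66, 4.30 and 4.39 in WT and 3.33, 3.29 and 3.71 in Nat10 cKO, a difference of -0.37. Every Nat10 cKO library thus held less Tet3 mRNA relative to both methyltransferase genes than any WT library. Dnmt3a reads per Dnmt3l read were 0.972, 1.03 and 1.11 in WT and 0.832, 0.704 and 0.906 in Nat10 cKO, a difference of -0.36. Dnmt1 reads per Uhrf1 read were 2.35, 2.14 and 2.09 in WT and 2.00, 1.95 and 2.06 in Nat10 cKO. That difference of -0.13 was the smallest among the pairs that did not overlap, and the highest Nat10 cKO value nearly met the lowest WT value. The log2 ratio of Tet3 to Tdg differed by -3.87, with 1 read added to each count. The ratios of Dnmt3a to Dnmt3b (-0.23), Tet3 to Dppa3 (-0.47) and Uhrf1 to Dppa3 (0.33) overlapped between the groups (exact p = 0.2, 0.2 and 0.3).

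**Figure D3:**
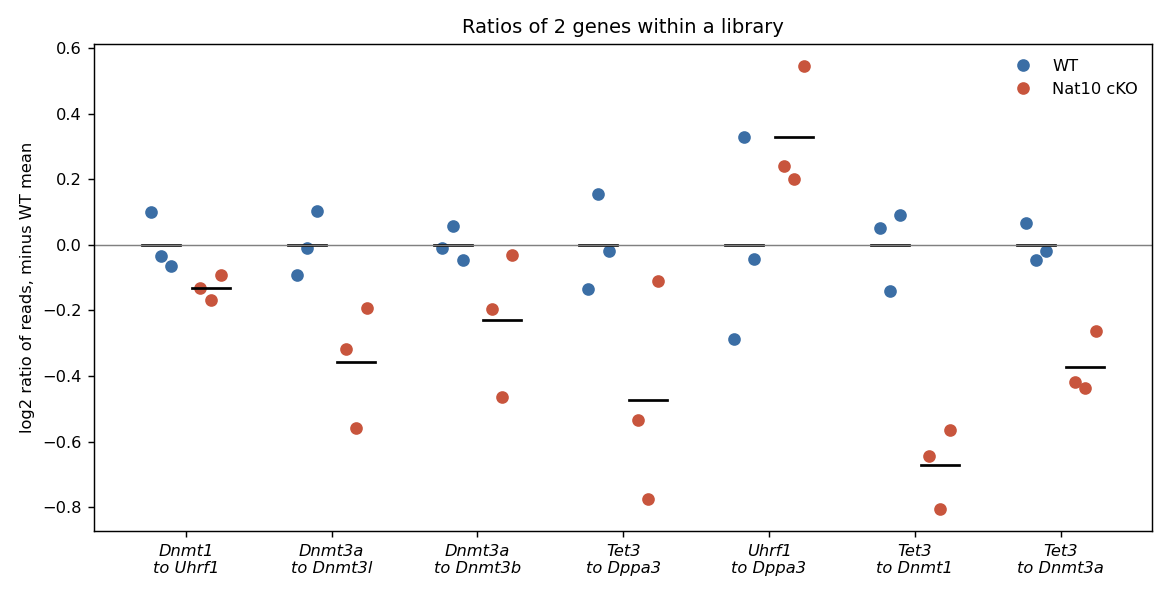
Log2 ratio of the reads of a pair of genes in each library, minus the WT mean of that ratio (points, 1 per library; black lines, group means); Tet3 to Tdg is left out because 1 library had 0 Tdg reads. The ratios of Tet3 to Dnmt1 and of Tet3 to Dnmt3a show all Nat10 cKO points below all WT points, and that of Uhrf1 to Dppa3 overlaps.

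Some libraries were high or low for most of these genes. WT replicate 2 was the highest WT library for 7 of the 10 genes and for 39.6% of all tested genes, and Nat10 cKO replicate 3 was the highest of its group for 7 genes, against 37.7%. Nat10 cKO replicate 2 was the lowest of its group for 6, against 38.6%. Tet1, Tet2, Tet3 and Dnmt3a have exon lengths of 15457, 16870, 16695 and 16642 bases, in the longest of 10 equal groups of genes (9912 bases or more). That group had a median log2 change of -0.07, while the groups from the second to the fifth had medians from 0.07 to 0.10. The shortest group, of 255 to 1651 bases, had a median of -0.02, and Dppa3 with 892 bases lies in it. Within that longest group the median deviation from a gene's mean was -0.09 in Nat10 cKO replicate 2 and 0.03 in replicate 3. With a correction of each library for exon length, chosen after the trend was seen, Tet1 was -0.72 and Tet3 -0.61, and both passed (limma adjusted p = 0.00148 and 0.00108). Dnmt3a was then -0.24 and Dppa3 -0.16, and neither passed (adjusted p = 0.0652 and 0.129).

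Other genes of the pathway were read from 5 lists, in which 69 of 75 listed genes were tested; 18 rose and 4 fell, against 17.4% and 17.6% of all tested genes, and their median log2 change was 0.15. The rises numbered 11 when WT replicate 1 was left out, 10 when WT replicate 3 was and 12 when Nat10 cKO replicate 2 was, and with CPM multiplied by the authors' factors 4 rose and 4 fell. Of the 14 oocyte markers, 11 rose, 1 fell (Oosp1) and 2 did not pass, with 2 rises on the deposited scale and 4 rises and 1 fall with the authors' factors on CPM; their part in these counts was not tested. On the deposited scale 4 of the 69 tested pathway genes passed, all with a rise: Kdm1b, Ehmt2, Mbd1 and D2hgdh. The genes described in each list below include the 2 with the smallest p, so these were also picked from these data.

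Cofactors of methylation and imprint protection had 7 rises and 3 falls among 21 tested genes, a median of 0.13. On the deposited scale it had 2 rises and no fall, and with CPM multiplied by the authors' factors 2 rises and 3 falls with a median of -0.09. Kdm1b, the H3K4 demethylase that growing oocytes need for imprints, rose from 279 ± 66.9 to 472 ± 37.8 CPM (SD, n = 3; log2 change 0.79, limma adjusted p = 0.00115). Ehmt2, the H3K9 methyltransferase G9a, rose from 0.919 ± 0.487 to 4.14 ± 0.284 CPM (log2 change 1.45, limma adjusted p = 0.000147). Both were also called on the other 2 scales. Zfp57, the zinc finger protein of imprint protection, and Usp7, a deubiquitinase that binds DNMT1, did not pass. Zfp57 was at 1444 and 1581 CPM and Usp7 at 404 and 376 CPM in WT and Nat10 cKO, log2 changes of 0.13 and -0.10 (limma adjusted p = 0.192 and 0.349). The other genes that passed, named after their values were seen, were Uhrf2, Hells, Cdca7, Cdca7l and Zfp445 with a rise and Kdm1a, Nsd1 and Ctcf with a fall. The number of rises in this list was 4 without WT replicate 1, WT replicate 3 or Nat10 cKO replicate 2.

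Of 8 methyl-CpG readers, Mbd1 rose from 6.96 ± 0.886 to 15.9 ± 0.124 CPM (SD, n = 3; log2 change 1.09, limma adjusted p = 0.000121) and no other passed; the list's median was -0.13. It rose on all 3 scales. Mbd3, a subunit of the NuRD complex, was at 25.1 and 23.2 CPM and Zbtb33 (Kaiso) at 17.4 and 15.6 CPM in WT and Nat10 cKO (limma adjusted p = 0.615 and 0.352). Zbtb38 was at 2.44 and 1.68 CPM, with a log2 change of -0.38 (limma adjusted p = 0.135).

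TET partners and regulators had 3 rises and no fall among 14 tested genes, a median of 0.18. Cul4a, a cullin of the ligase that modifies TET proteins, rose from 30.9 ± 4.72 to 48.2 ± 5.23 CPM (SD, n = 3; log2 change 0.63, limma adjusted p = 0.00221). D2hgdh, which clears the TET inhibitor D-2-hydroxyglutarate, rose from 0.572 ± 0.121 to 1.62 ± 0.581 CPM (log2 change 0.72, limma adjusted p = 0.0053). Oga, which removes O-GlcNAc, rose as well and is named after its value was seen. Ddb1 and Cul4b, parts of the same ligase and the most abundant genes of the list, did not pass, at 329 and 382 CPM for Ddb1 and 232 and 245 CPM for Cul4b in WT and Nat10 cKO (limma adjusted p = 0.0784 and 0.568). The list had 5 rises when either WT replicate 2 or Nat10 cKO replicate 3 was left out, and 1 under either scale that uses the deposited factors.

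Base excision repair, the pathway downstream of TDG, had 6 rises and 1 fall among 17 tested genes, a median of 0.18. Parp1, the sensor of strand breaks, rose from 25.6 ± 4.18 to 39.0 ± 2.42 CPM (SD, n = 3; log2 change 0.60, limma adjusted p = 0.00302), and Mutyh, a glycosylase for adenine opposite oxidised guanine, rose too (log2 change 0.47, limma adjusted p = 0.0128). Neil3, the glycosylase with the highest level in the list, fell from 342 ± 48.4 to 265 ± 14.7 CPM (log2 change -0.36, limma adjusted p = 0.0168). On the deposited scale it was 0.0004, or -0.24 relative to the median of all genes. Polb, the gap-filling polymerase, was at 92.9 and 105 CPM and did not pass (log2 change 0.18, limma adjusted p = 0.161). Apex1, Xrcc1 and Ung were among the other genes that rose and are named after their values were seen; 61.7% of the exon length of Apex1 overlaps Pip4p1 on the other strand. These rises were fewer without 1 library, numbering 2 when WT replicate 1 was left out, 1 when WT replicate 3 was, and 3 when Nat10 cKO replicate 1 or 2 was. No rise of this list passed under either scale that uses the deposited factors.

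Of 9 tested genes of methyl donor supply, Ahcy, which hydrolyses the product inhibitor S-adenosylhomocysteine, rose from 19.1 ± 1.66 to 27.6 ± 3.35 CPM (SD, n = 3; log2 change 0.50, limma adjusted p = 0.00776) and no other passed. Mat2b, the regulatory subunit of the methionine adenosyltransferase, was at 1841 and 1856 CPM, a log2 change of 0.01 with an interval from -0.16 to 0.19. Mat1a was at 50.8 and 40.9 CPM (log2 change -0.31, limma adjusted p = 0.0591).

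**Figure D4:**
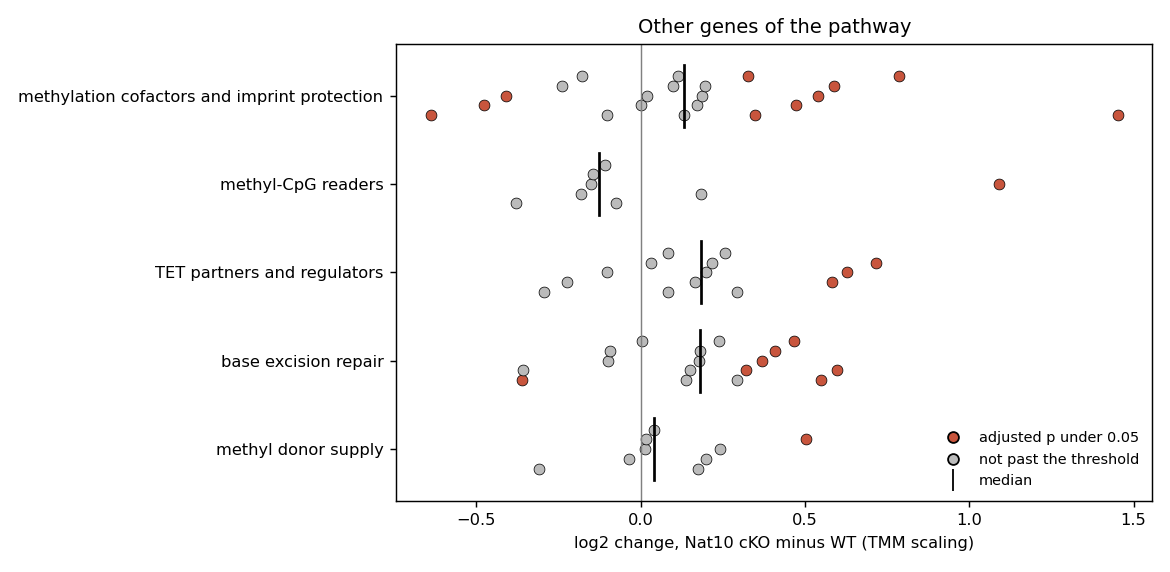
Log2 change, Nat10 cKO minus WT under TMM scaling, of every tested gene in the 5 pathway lists (1 point per gene, filled red where the limma adjusted p was under 0.05; vertical bars, list medians). Red points lie on both sides of 0 for the cofactors, with 7 above and 3 below, while the reader list has 1 red point, Mbd1, well above the rest.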

How the data were processed

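The submitters' processing notes name the mm10 build (GRCm38), featureCounts, STAR 2.7.10a and Trim Galore 0.6.7. Their settings, strand use and the treatment of reads with several matches are not given here. The deposited values of WT replicate 1 are whole counts of reads per gene. The deposited values of the other 5 libraries are a scaled signal, whole reads multiplied by 1 factor per library (1.38 and 0.945 for WT replicates 2 and 3, 0.920, 0.908 and 0.932 for Nat10 cKO replicates 1, 2 and 3), and how the authors chose the factors is not stated. The name of the deposited data contains the term ercc, but whether the factors came from ERCC spike-in RNA is not stated. Divided by the factor, 100% of the values came out whole (tolerance 0.001).

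The 10 genes and all gene lists were chosen with earlier results of these data known. Reads were filtered with filterByExpr (minimum count 10 in 3 libraries, 18353 genes kept), TMM-scaled with edgeR 4.0.16, and tested as log2(CPM + 1) with limma 3.58.1 (trended, robust, two-sided) on all 6 libraries. P-values were adjusted by Benjamini-Hochberg across the tested genes, and 0.05 was the threshold. A test on the counts was an alternative (edgeR, DESeq2 1.42.0). That deposited columns hold scaled values is why the main test was made on a log scale. Pairs of genes were compared by exact permutation over 20 assignments, with 1 read added to each count. Intervals cover 95%, and limits from a count of 0 use 3 reads and cover counting error only, since PCR copies are not independent molecules. Named were the 10 genes, Nat10, in each pathway list the 2 genes with the highest mean level and the 2 with the smallest p, and in each marker list the 2 with the highest level; others are said to be named after their values were seen, and 1 gene that counts include is not reported here. Positions and exon lengths came from GENCODE M21 on GRCm38, where 53180 of 55291 symbols matched 1 gene, and copies from BLAST of transcripts (at least 90% identity over 100 bases). R 4.3.3 and Python 3.11.15 were used.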

Additional observations from a re-analysis of the deposited data

How the results depend on the processing

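Under edgeR's quasi-likelihood test, DESeq2 and a pseudocount of 0.25, each of the 38 named genes kept its direction and its side of the threshold. With a pseudocount of 4 or with median-of-ratios factors 37 did, with total reads only 36, with no filter 34, and with a minimum count of 50 all 37 tested, where Tdg was not tested and 0 of the 10 genes rose. The deposited scale moved most: 1462 genes were called (1207 higher, 255 lower), 0 of the 10 genes fell, and 4 of the named genes called under TMM scaling had the opposite sign, Dnmt3a to 0.0256, Dppa3 to 0.13, Neil3 to 0.0004 and Cyp19a1 to 0.0309, none of them called there and all 4 still below the median of all genes; 7 named genes not called on either scale also differed in sign. With the deposited factors on per-read shares 4053 genes were called, 1024 of them higher. Of the 10 genes, 2 fell with no filter and 2 with the exon length correction, which was chosen after seeing the data, and 2 to 3 fell when 1 library was left out. The pairs of genes whose ratios did not overlap numbered 5 to 7 when 1 library was left out. The cause of these changes was not tested, and fits without a library also hold fewer samples.

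Same-numbered WT and Nat10 cKO libraries had correlated deviations of 0.08, 0.07 and -0.12, so the numbers were not taken to pair the samples. With the replicate number as a block, 6234 genes were called, and Dppa3 no longer passed (adjusted p = 0.0596). Depth limited Tdg most, with 11 reads over the 3 WT libraries.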

Other observations

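The factor of each library, relative to WT replicate 1, equals 69 divided by a whole number, 69, 50 and 73 for WT and 75, 76 and 74 for Nat10 cKO replicates 1, 2 and 3, with a largest deviation of 3.49e-08 from whole numbers. What these whole numbers count is not stated in the sources used here.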
